A study of Homo sapiens with 4 samples.

Results

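The regions described here had a high 5-methylcytosine pileup in knockout cells and no counterpart in the control list. They are autosomal peaks of the knockout 5-methylcytosine list with a pileup of at least 41 fragments at the summit. This limit is 9.27 times the mean pileup of the library. No control peak lay within 1000 bp of them, and the local background was at most 5 times the lowest of the list. The rule found 2473 regions among the 296521 knockout peaks, and both lists together held 558178 peaks. The regions were thus selected on pileup, local background and distance to the control list, so those values are a description and carry no test.

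The cells were C4-2B, labelled C42B by the submitters, a prostate cancer line that descends from LNCaP and grows without androgen. Control cells carried the guide RNA sgC and were labelled WT. Knockout cells carried sgPKCl/i, a guide against PKCλ/ι, an atypical protein kinase C that acts in cell polarity and signalling. Both were untreated and were harvested at about 70% confluency, 48 h after plating. One 5-methylcytosine immunoprecipitate and 1 input were sequenced for each genotype, so no difference has a replicate check and no p-value is given. Whether the knockout was 1 clone or a pool was not given in the sources used here, and the peak lists hold no measure of the kinase itself.

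Methylated DNA immunoprecipitation enriches denatured fragments that an antibody against 5-methylcytosine binds. Its signal rises with the number of methylated cytosines on a fragment, so both the methylation level and the density of CpG sites set the height of a peak. In human somatic cells most methylated cytosines lie in CpG sites. The methyl groups come from the one-carbon cycle, which serine feeds and which the title of the series names as raised without the kinase. Tumour cells are known for gains of methylation at CpG islands together with losses over large gene-poor domains. The lists do not name genes. An annotation or genome of their build, hg19, was not used here, so regions are given by position.

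The depth of the libraries was judged from the lowest background of each list, which stands for the mean pileup of the library. It was 4.42 fragments in the knockout and 2.92 in the control, so the knockout immunoprecipitate was 1.51 times deeper. A pileup of 41 in the knockout thus corresponds to 27.1 in the control. Peaks of the control list started at a pileup of 10, and those of the knockout list at 14.

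Among knockout peaks past the same limits on pileup and background, a missing control counterpart was rare. There were 115809 such high peaks, and the 2473 regions made up 2.14% of them (95% exact interval 2.05 to 2.22). Without the limit on pileup, 15.1% of 289923 autosomal knockout peaks had no control peak within 1000 bp. Most high knockout peaks, 111323, overlapped a control peak directly, and a further 2013 had one within 1000 bp. Intervals here cover counting error, not the spread between cultures.

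Most of the knockout-only regions lay just above the pileup limit. Their median pileup was 45 (quartiles 42 and 52), or 10.2 times the library mean, and the highest was 152. A pileup of exactly 41 was held by 357 of them, with a median fold enrichment of 5.62. Just outside the limit, 414 otherwise eligible peaks had a pileup of 40 and a median fold of 5.48. At the distance limit, 110 regions had their nearest control peak 1001 to 1100 bp away, and 104 high peaks at 901 to 1000 bp were left out. The limit on background removed 45 peaks, with backgrounds of 5.11 to 23 times the lowest. The folds on the 2 sides of the pileup limit, and the counts on those of the distance limit, were thus close.

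**Figure D1:**
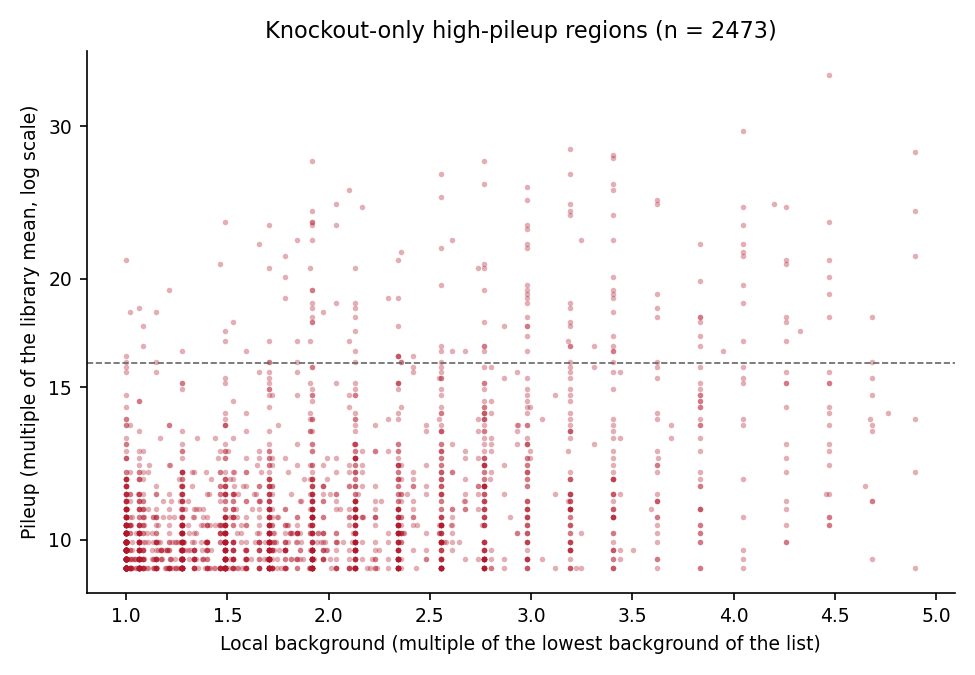
Each point is 1 of the 2473 knockout-only regions, placed by its local background as a multiple of the lowest background of the knockout list (horizontal axis) and by its pileup as a multiple of the library mean (vertical axis, log scale). The dashed line marks 16 times the mean, above which 179 regions lie. Points are densest near the pileup limit, and the highest pileups lie mainly where the background is above 1.5 times its lowest value.

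The share of knockout peaks without a control counterpart fell with pileup at first and then levelled off. It was 4.64% (4.39 to 4.89) at pileups of 41 to 45 and 2.53% (2.32 to 2.75) at 46 to 50. At 61 to 70 it was 0.858% (0.724 to 1.01), at 71 to 80 it was 0.774% (0.608 to 0.971) and at 81 to 100 it was 0.773% (0.597 to 0.984). Above a pileup of 60 the intervals of neighbouring bins overlapped. At 101 to 120 the share was 1.14% (0.782 to 1.61), from 32 of 2802 peaks, and 8 of 1247 peaks (0.642%, 0.277 to 1.26) at 121 or more had no control peak within 1000 bp.

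The share of control peaks without a knockout counterpart went on falling up to 16 times the mean. At the same multiple of the mean, 697 of 99870 high control peaks (0.698%, 0.647 to 0.751) lacked a knockout peak within 1000 bp, and the ratio of the counts was 3.55 (3.26 to 3.86). Pileups are whole numbers, so the control limit took effect at 28, or 9.58 times the mean. This was slightly stricter than the 9.27 times in the knockout. From 12 times the mean upward there were 516 knockout-only and 81 control-only regions. From 16 times the mean upward there were 179 of 22016 (0.813%, 0.699 to 0.941) in the knockout and 4 of 16200 (0.0247%, 0.00673 to 0.0632) in the control. As a ratio of counts over unequal numbers of high peaks, the gap between the libraries thus widened from 3.55 to 44.8 times (17.2 to 166). From 18 and 20 times the mean upward this ratio was 57 and 35.5, each with only 2 control-only regions. The 4 control-only regions from 16 times the mean upward had backgrounds of 2.79 to 4.93 times the lowest, and 3 of them had 3.81 times or more.

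**Figure D2:**
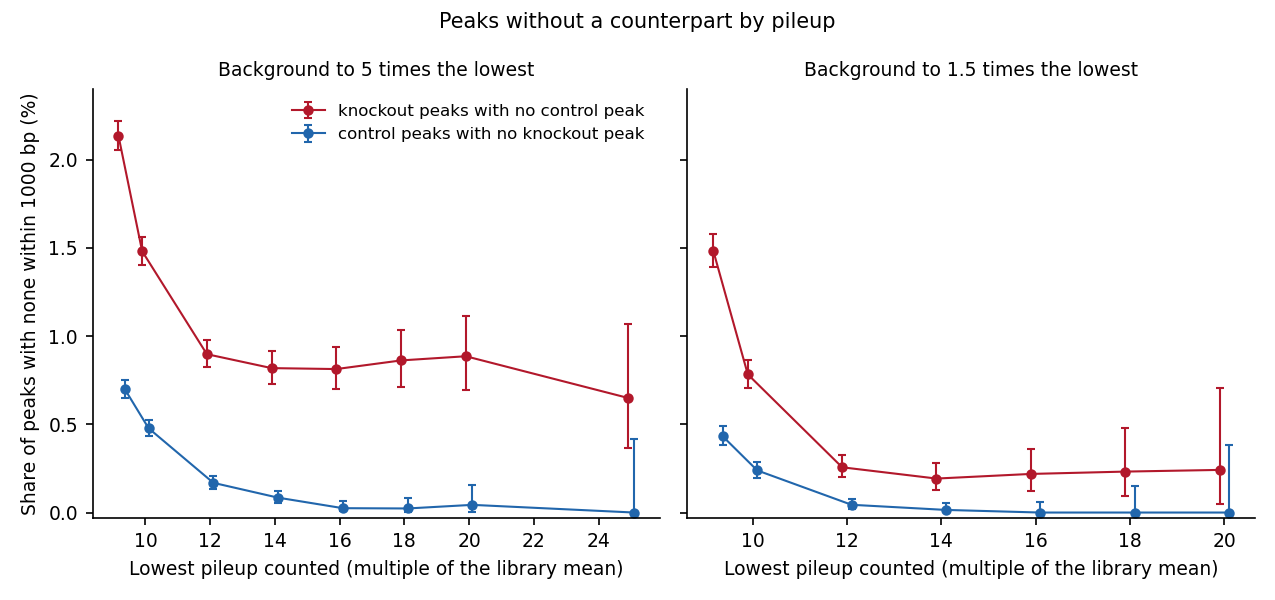
Share of high peaks that lacked a counterpart in the other genotype within 1000 bp (vertical axis, %) against the lowest pileup counted, as a multiple of each library's mean (horizontal axis). Red points are knockout peaks and blue points are control peaks, with 95% exact intervals, for backgrounds up to 5 times (left) and up to 1.5 times the lowest (right). Neighbouring points share peaks, and on the left the red points level off at 0.818% from 14 times the mean while the blue points fall to 0.0247% at 16 times the mean.

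Depth differed in the direction of this gap, since knockout peaks were looked for in the shallower list and control peaks in the deeper one. Divided by 1.51, the pileups of the regions corresponded to 27.1 to 100.4 fragments in the control, with a median of 29.7, and the limit on pileup sets the lowest of these. The part of depth in the gap was not tested. The control background at the regions themselves is not listed, and its part in the missing peaks was not tested.

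Local background, which the caller draws from the input library wherever that exceeds the mean, was higher at the knockout-only regions than at overlapping peaks. Its median was 1.72 times the lowest (1.70 to 1.81), against 1.46 (1.46 to 1.47) at the high knockout peaks that overlapped a control peak. It was 1.97 (1.92 to 2.04) at high knockout peaks with a control peak within 1000 bp but no overlap, and 1.75 (1.65 to 1.78) at control-only regions. All 3 sets of high peaks without an overlap thus had medians above that of the overlapping knockout peaks, and a higher background was not particular to the knockout-only regions. The control-only median is scaled by the lowest background of its own list, and overlapping control peaks were not compared. A background over 2 times the lowest was found at 963 knockout-only regions (38.9%) and at 23.2% of the overlapping ones. At the lower knockout-only peaks it was found at 3.66%. Their pileups were under 41, with a median of 26, so this share is not matched for pileup with the other 2. The share of high peaks that lacked a control counterpart rose with background within both ranges of pileup. At pileups of 41 to 50 it was 2.66% (2.49 to 2.84) for backgrounds up to 1.5 times the lowest, 5.39% (5.04 to 5.76) for 1.5 to 3 times and 11.3% (9.34 to 13.4) for 3 to 5 times. At pileups of 51 or more the corresponding shares were 0.369% (0.307 to 0.44), 1.35% (1.22 to 1.48) and 3.35% (2.87 to 3.88).

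Raised background was more frequent at the highest peaks, both among the regions and among overlapping peaks. Over all heights, a background over 2 times the lowest was found at 38.9% of the regions and 23.2% of overlapping high peaks. Of the 179 regions from 16 times the mean upward, 134 (74.9%, 67.8 to 81) had a background over 2 times the lowest, against 47.3% (46.6 to 48.0) of the 21628 overlapping peaks of that height. Where the background was at most 1.5 times the lowest, 15 of 6857 knockout peaks (0.219%, 0.122 to 0.361) of that height lacked a control counterpart. In the control 0 of 5993 did, which allows a share of up to 0.0501% when 3 counts are taken as the limit of a count of 0, or 0.0615% by the exact interval. The excess in the knockout was thus present at low background, at a lower level. The limit of 16 times the mean was chosen after the values were seen, and the part of background in the missing control peaks was not tested.

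**Figure D3:**
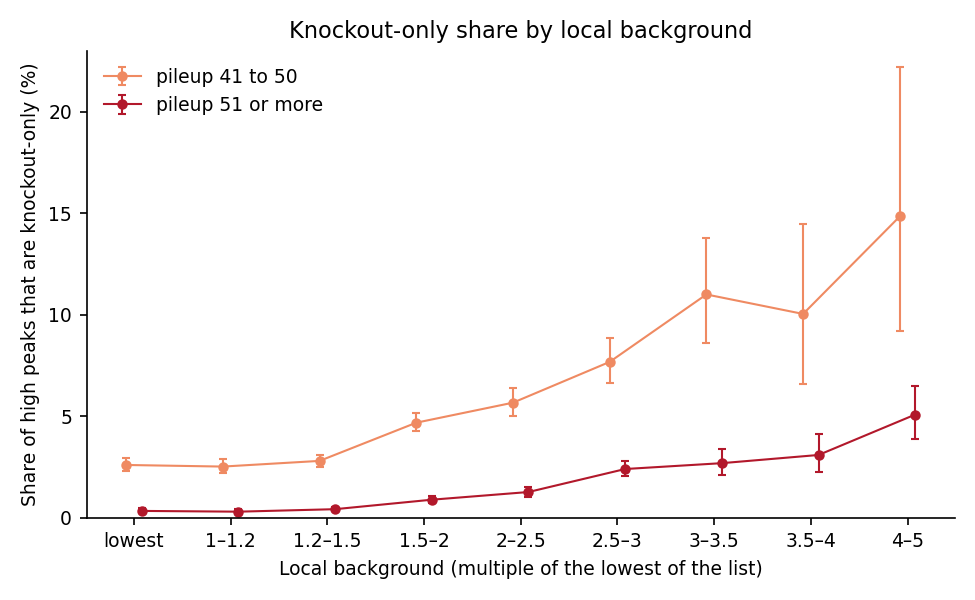
Share of high knockout peaks that had no control peak within 1000 bp (vertical axis, %) by local background as a multiple of the lowest of the list (horizontal axis), for pileups of 41 to 50 (orange) and of 51 or more (dark red). Bars are 95% exact intervals, and both series are higher at high background than at the lowest background.

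Knockout-only regions were narrower than overlapping peaks of the same pileup. Their median length was 444 bp (440 to 449), against 639 bp (637 to 642) for overlapping high peaks. At pileups of 41 to 45 the medians were 422 bp (418 to 427) over 1252 regions and 517 bp (514 to 519) over 24791 overlapping peaks. At pileups of 81 to 120 they were 731 bp (695 to 763) over 97 regions and 1071 bp (1056 to 1084) over 10996 overlapping peaks. The difference in length was therefore present across the range of pileup. It was not particular to the knockout-only regions, since high knockout peaks with a control peak within 1000 bp but no overlap had a median length of 447 bp (441 to 454) at a median pileup of 46. Control-only regions had 402 bp (395 to 408), in the shallower list, and were not compared with overlapping control peaks. Longer peaks also overlap another peak more easily by construction. The longest knockout-only regions were chr10:101597566-101600699 with 3134 bp and a pileup of 45, and chr5:563397-566149 with 2753 bp and a pileup of 68.

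The regions lay in surroundings sparser in methylated peaks than other high peaks. Within 10 kb on either side the median number of other knockout peaks was 3, against 7 around overlapping high peaks. The lower knockout-only peaks also had a median of 3, and control-only regions had a median of 3 other control peaks. A control peak lay within 10 kb of 1851 regions (74.8%), and the median distance to the nearest one was 3468 bp (3279 to 3631). No control peak lay within 100 kb of 77 regions. The lower knockout-only peaks had a median distance of 3465 bp (3425 to 3504). Among the regions themselves the median was 4260 bp (3510 to 6100) for the 179 from 16 times the mean upward and 3396 bp (3216 to 3571) for the other 2294. The rule used the distance to control peaks, so the distances are a description. Sets chosen for lacking or overlapping a control peak can also differ in the number of neighbours by construction, so those counts are a description too.

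The 5 most isolated regions were all on chromosomes 3, 4 and 10 and had moderate pileups of 41 to 61. The farthest was chr3:524273-525410, with a pileup of 61, a fold of 5.95 and no control peak for 1786234 bp. Its nearest other knockout peak was 1786168 bp away, so this stretch was empty of peaks in both lists apart from the region. The next was chr4:135122444-135122991, with a pileup of 48, a fold of 8.58 and a distance of 804534 bp. At the other end, chr10:24945748-24946680 lay 1001 bp from a control peak of pileup 18, and its own pileup was 47. A knockout peak of pileup 45 that overlapped a control peak lay 238 bp from it.

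Peaks found in both genotypes around these regions differed little between the genotypes. Among 11326 pairs of overlapping peaks within 20 kb of a region, the median log2 ratio of pileup over the library mean, knockout over control, was 0.06 (0.05 to 0.07) with an SD of 0.33. Over all 206556 pairs it was 0.04 (0.03 to 0.04) with an SD of 0.34. Within 500 kb of each region the median of the pairs was 0.06 (0.06 to 0.06), the same to 2 decimals as around overlapping high peaks. Such pairs leave out every peak without an overlap in the other list. The nearest other knockout peak overlapped a control peak at 1443 of the regions (58.4%). Near equality of relative height was thus seen for the paired peaks around the regions, and unpaired neighbours were not compared.

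The region with the highest fold enrichment shows this pattern. It was chr10:89114431-89115433, whose pileup was 93 (75.1 to 114), or 21 times the mean. Within 20 kb of it 5 peaks were paired between the lists, with log2 ratios of -0.34 to 0.15 and summits at most 144 bp apart. The control list gave 29 at the nearest of them, 4096 bp away, where the knockout had 45. Of the 8 other knockout peaks there, 3 had no control peak within 1000 bp. Of these 3, chr10:89109227-89109745 met the same rule, with a pileup of 43. Here the knockout listed a peak of more than 20 times the mean between neighbours of 6.10 to 10.2 times, and the control listed nothing at that place.

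The second, chr4:78034222-78034724, stood almost alone. Its pileup was 81 and its background 1.02 times the lowest. Within 20 kb the knockout list held only 2 other peaks, with pileups of 26 and 32, and the control list held 1, with a pileup of 26. The third, chr1:235105484-235106148, lay among 13 other knockout and 12 control peaks, and its pileup was 82. Of those peaks 11 were paired, with a median log2 ratio of 0.06. The 3 regions of highest fold thus lay in surroundings of different peak density.

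**Figure D4:**
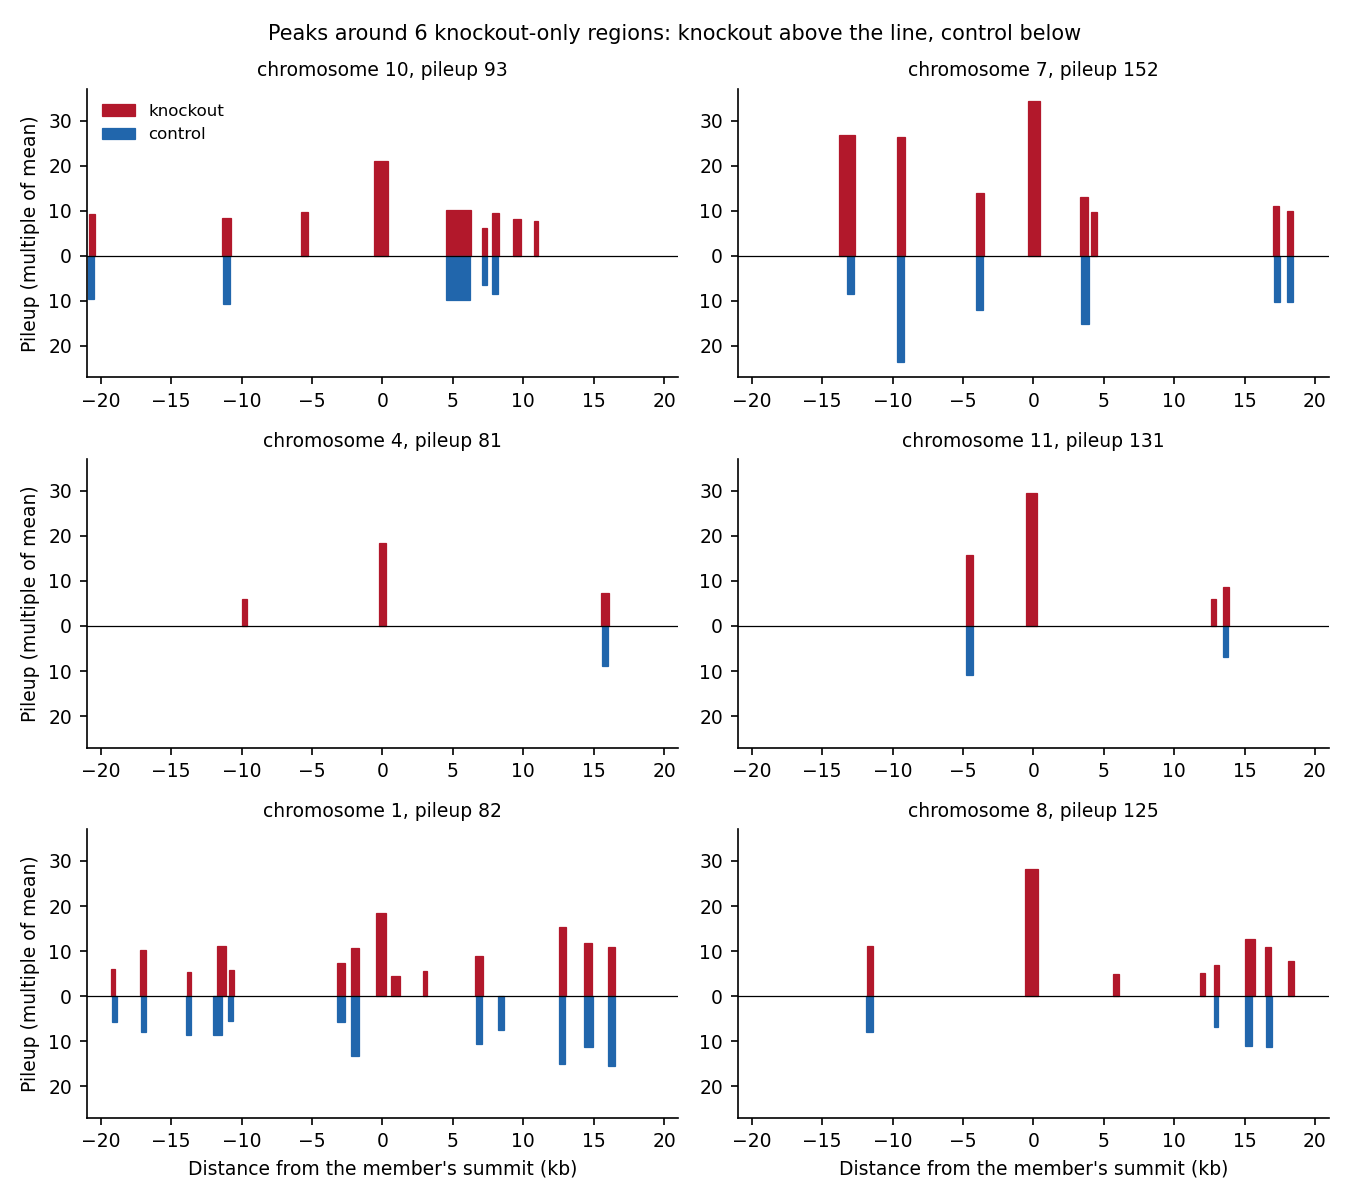
Peaks within 20 kb of the summit of the 3 regions with the highest fold (left column) and the 3 with the highest pileup (right column). The horizontal axis is the distance from the region's summit in kb. Bars give pileup as a multiple of the library mean, knockout upward in red and control downward in blue, with the width of each peak. The region at 0 has no blue bar in any panel, while most of the other red bars face a blue one.

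The regions with the highest pileups had raised backgrounds. The highest was chr7:89963480-89964291, with a pileup of 152 (129 to 178), 34.4 times the mean, a background of 4.47 times the lowest and a fold of 7.36. It lay between control peaks, the nearest of pileup 44 at 2944 bp. Of the 6 pairs around it 1 had a log2 ratio of 1.65, at a knockout peak of pileup 119 with a background of 3.95 times the lowest. The next was chr11:82681427-82682207, with a pileup of 131, a background of 4.04 times the lowest and a fold of 6.99. The third was chr8:74197567-74198426, with a pileup of 125, a background of 3.19 times the lowest and a fold of 8.33. Over the 10 regions with the highest pileup, from 117 to 152, the background ran from 1.92 to 4.90 times the lowest.

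The lowest of these 10 backgrounds belonged to chr7:140462683-140463371. This region had a pileup of 121 (100.4 to 145), 27.4 times the mean, a fold of 12.9 and the highest −log10 q of all the regions, 88.8. A control peak of pileup 63, 21.6 times its mean, lay 5047 bp away and overlapped a knockout peak of pileup 87. Both libraries therefore gave high signal close by, and the control list had no peak at the region itself.

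Chromosome 7 held the most knockout-only regions, 301 or 12.2% of all of them. They were 2.90% (2.59 to 3.24) of its 10370 high peaks. Chromosome 4 had the highest share at 3.14% (2.52 to 3.86), with 86 regions, and the intervals of both overlapped. The lowest shares were on chromosome 21 at 0.787% (0.378 to 1.44), with 10 regions, and chromosome 22 at 1.5% (1.16 to 1.91), with 65. Between these ends most chromosomes could not be placed in order beyond their intervals.

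Background on chromosome 7 was high in general, with a median of 1.75 times the lowest at its high peaks. Among peaks with a background up to 1.5 times the lowest, 2.49% (1.99 to 3.07) on chromosome 7 and 1.43% (1.34 to 1.52) on the other autosomes were knockout-only. At 1.5 to 3 times these shares were 3.01% (2.60 to 3.48) and 2.70% (2.54 to 2.87). At 3 to 5 times they were 3.68% (2.58 to 5.08) and 4.79% (4.22 to 5.41). The higher share on chromosome 7 was thus clear of counting error at low background. At 1.5 to 3 times it was higher with overlapping intervals, and at 3 to 5 times it was lower with overlapping intervals. These bins were not matched for pileup. Control-only regions were also most numerous on chromosome 7, at 102, while chromosome 13 had the highest control-only share, 1.87% (1.38 to 2.46), with an interval that overlapped that of chromosome 21 (0.703 to 2.14). Chromosome 21 was the one autosome with fewer knockout-only than control-only regions, 10 against 14.

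**Figure D5:**
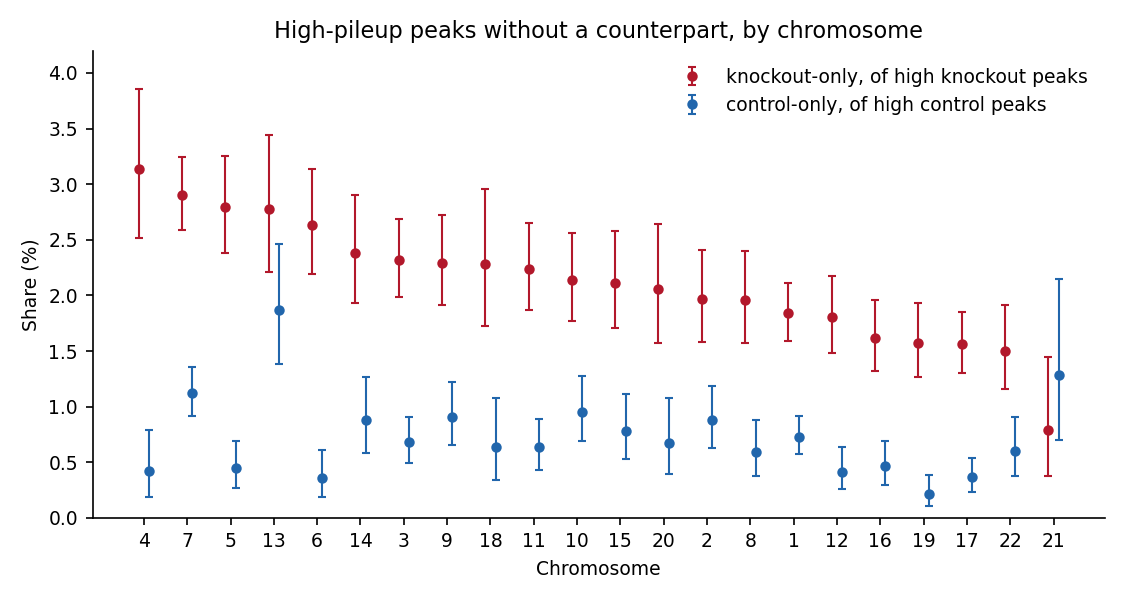
Share of high knockout peaks that were knockout-only (red) and of high control peaks that were control-only (blue) on each autosome (vertical axis, %), with 95% exact intervals. Chromosomes are in falling order of the red share, from 3.14% on chromosome 4 to 0.787% on chromosome 21.

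The order of chromosomes was different for the highest regions. From 16 times the mean upward, chromosome 4 had 11 of 286 peaks without a control counterpart (3.85%, 1.94 to 6.78) and chromosome 6 had 19 of 636 (2.99%, 1.81 to 4.63). Chromosome 7 also had 19, but of 2993 peaks (0.635%, 0.383 to 0.99). Chromosome 22 had 1 of 875 (0.114%, 0.00289 to 0.635). Chromosomes 4 and 6 thus lay above chromosomes 7 and 22 by more than counting error.

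The regions were spread over the autosomes with some local groups. Of 566 windows of 5 Mb with a high knockout peak, 69 held none of the regions and 60 held 10 or more. The fullest was chromosome 7 from 140 to 145 Mb, with 24 regions among 344 high peaks (6.98%, 4.52 to 10.2). On the same chromosome 17 of 189 high peaks (8.99%, 5.33 to 14) from 90 to 95 Mb were knockout-only, and 11 of 100 (11%, 5.62 to 18.8) from 85 to 90 Mb. Windows with fewer high peaks reached higher shares, such as 7 of 27 (25.9%, 11.1 to 46.3) on chromosome 4 from 190 to 195 Mb. Another region lay within 100 kb of 876 regions (35.4%, 33.5 to 37.3), and within 10 kb of 204 (8.25%). Of the overlapping high knockout peaks, which were far more numerous, 98.9% had another such peak within 100 kb. Whether the regions grouped beyond the density of high peaks was not tested.

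The largest groups, in which each region lay within 100 kb of the next, held 9 and 8 regions. The first ran over chr13:30443579-30918672, and its pileups were 42 to 49. It was dense in methylated peaks, with 93 knockout and 81 control peaks of any pileup, and held 3 control-only high regions as well. The second ran over chr12:90939685-91263314, with pileups of 41 to 46 and backgrounds of 1 to 1.92 times the lowest. It held 26 knockout peaks and 6 control peaks in 324 kb, so the control list held far fewer peaks there. A group of 6 on chr17:26698557-26884114 held the region chr17:26708116-26709245, with a pileup of 112, beside 5 others of 43 to 73. Groups thus occurred both where the 2 lists were close in number and where the control list was sparse. The knockout counts include the regions themselves, which were chosen for lacking a control peak within 1000 bp. Fewer control peaks in a group therefore follow in part by construction.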

How the data were processed

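Peak lists from MeDIP-seq (methylated DNA immunoprecipitation and sequencing) of 1 control and 1 knockout immunoprecipitate were used. The submitters' processing notes name BWA, FastQC, MACS2 and the build hg19, per the labels. How duplicates were handled, and the versions and settings, are not given in the sources used here. Pileup as deposited is a signal, the whole number of fragments over the summit, and is unscaled. Fold enrichment, as the authors deposited it, is a ratio of pileup plus 1 to local background plus 1. Significance, deposited as −log10 p and −log10 q, is the caller's, and is used only within a list, apart from 1 alternative. Positions are hg19, counted from 1. Each list was assigned to its sample from the genotype and the antibody in its name.

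Background was recovered by inverting that ratio. From it a Poisson tail returned each listed −log10 p to within 0.000329 in the knockout and 0.000573 in the control. The floor, the lowest background, scaled pileups between libraries. Distance is the gap between peak edges. Pairs were knockout and control peaks that overlapped each other and nothing else, and local medians needed at least 5 pairs. Intervals at the 95% level are exact Clopper-Pearson for shares and ratios of counts, exact Poisson for pileups and order-statistic for medians. They cover counting error or the scatter of regions within these libraries, not replicate error, and overlapping fragments are not replicates. The distance, pairing and background steps were tested on simulated intervals. Python 3.11.15, numpy 2.4.6, pandas 2.3.3 and scipy 1.17.1 were used.

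The regions, lists and comparisons were chosen with earlier results of these data known. Named regions were the 10 with the highest pileup, the 10 with the highest fold, the 5 longest, the 5 farthest from and the 5 nearest to a control peak, and the largest groups within 100 kb; windows, chromosomes and the limit of 16 times the mean were named after their values were seen. Gene lists and CpG content were planned and not analysed here, since sequence and annotation of this build were not used.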

Additional observations from a re-analysis of the deposited data

How the results depend on the processing

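Across 7 results and 59 alternatives, 30 values stayed within 1.5 times (the number of regions) or within the 95% interval of the value reported (the others), 29 left it and 0 reversed. Leaving out chromosome 7 and limiting the background to 1.5 times the lowest were chosen after seeing the data. With a pileup minimum of 50 there were 773 regions, 1.08% of high peaks, a ratio to control-only regions of 6.18, a median length of 540 bp, a distance of 4226 bp and 15.9% with another within 100 kb. With no control peak within 5000 bp these were 980, 0.846%, 4.21, 459 bp, 13434.5 bp and 22.8%. With no overlap as the sole limit on distance there were 4486 regions, 3.87%, a distance of 1234.5 bp and 54.7% with another within 100 kb. At a −log10 q of at least 20 there were 1305 regions, 1.37%, a ratio of 45, 468 bp, 3739 bp and 20.1%. The −log10 q limit is stricter on the shallower control list by construction, as is a pileup of 41 in both lists, which gave a ratio of 98.9. Without a limit on background the ratio was 2.88. At a background up to 1.5 times the lowest there were 963 regions, 1.48%, a ratio of 3.68, with 17.7% within 100 kb of another. Without chromosome 7 that last share was 33.3%. Over all 2473 regions, 8.25% had another within 10 kb. Stricter rules leave fewer regions to be neighbours by construction; for the others the cause was not tested. The ratio to control-only regions was above 1 in all its alternatives, and the log2 ratio of surrounding pairs stayed within its interval in all of its own.

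CpG content around summits was not run. No paired analysis was possible because there was 1 immunoprecipitate per genotype and leaving out a library was not run. The shallower control list limits how firmly a missing control peak can be read.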

Other observations

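Chromosome X was left out by the rule. It held 743 knockout peaks past the same limits on pileup and background, and 22 of them had no control peak within 1000 bp.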
